A study of Rattus norvegicus with 36 samples.

Results

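The miR-181 family was followed through rats that had self-administered heroin or saline. Its members here are the 4 mature 5p-arm miRNAs miR-181a-5p, miR-181b-5p, miR-181c-5p and miR-181d-5p, taken by name from a table of 861 miRNA names. All 4 were present. The table also held 6 names for the 3p arms of the same hairpins, which are described beside them. Adult male Sprague-Dawley rats, aged 8 weeks on arrival, were fitted with jugular catheters. One group of rats then took heroin at 0.075 mg/kg per infusion in 10 daily sessions of 6 hours, and the control rats had the same surgery and took saline for as many days. Rats were killed within 60 minutes of the last session. Small RNA was sequenced from serum, from the nucleus accumbens (NAc) and from the prefrontal cortex (PFC), with 6 libraries for heroin and 6 for saline in each tissue, 36 in all. Brain RNA was total RNA prepared with Trizol, whereas serum RNA was exosomal RNA prepared with the SeraMir kit, so serum and brain differ in extraction as well as in origin and the contributions of these cannot be told apart.

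MicroRNAs guide Argonaute proteins to messenger RNAs, mostly through pairing of the bases near their 5′ end, the seed, and so lower the output of the transcripts they bind. The miR-181 family is carried by paired hairpins at several places in the genome, is abundant in brain and in developing lymphocytes, and has been studied in dopamine-responsive striatal neurons and in cocaine reward, where AMPA receptor subunits and other synaptic transcripts are among its described targets. Each hairpin yields a 5p and a 3p arm, of which usually 1 accumulates.

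The mature sequences are shown because the 4 members share their seed and differ only behind it. They are the RefSeq entries on GRCr8, printed 5′ to 3′ with bases 2 to 8 in capitals.
rno-miR-181a-5p: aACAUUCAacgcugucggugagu
rno-miR-181b-5p: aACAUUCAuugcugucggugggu
rno-miR-181c-5p: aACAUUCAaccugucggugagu
rno-miR-181d-5p: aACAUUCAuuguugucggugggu
The seed ACAUUCA was shared by all 4 members and by no other of the 693 mature entries searched. Positions are counted from 1 at the 5′ end. Relative to miR-181a-5p, miR-181b-5p carries A9U, C10U and A21G. miR-181d-5p carries C12U relative to miR-181b-5p and is otherwise identical to it. miR-181c-5p carries G11del relative to miR-181a-5p and so is 22 bases long, against 23 for the others. The single base that separates miR-181d-5p from miR-181b-5p, and miR-181c-5p from miR-181a-5p, means that the rule for assigning reads could move counts within these pairs. The sources used here do not give that rule.

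The members come from 3 pairs of hairpins. In the GRCr8 table, miR-181a-5p is encoded with the same sequence in Mir181a2 (chr3:43025601-43025623, plus strand) and in Mir181a-1 (chr13:52037081-52037103, plus strand), so its reads cannot be assigned to either hairpin. miR-181b-5p lies beside it in Mir181b1 (chr13:52037263-52037285, plus strand). The pair on chromosome 3, Mir181a2 and Mir181b2, lies within Nr6a1, a protein-coding gene, and also within the long non-coding gene LOC120101539. The pair on chromosome 13 lies within the long non-coding gene LOC108352541. miR-181c-5p (chr19:40888314-40888335) and miR-181d-5p (chr19:40888484-40888506) sit together on the plus strand of chromosome 19, within no annotated gene, near the hairpins of miR-23a, miR-27a and miR-24-2. These positions are those of GRCr8, while the counts were made against the older build rn6 and carry no coordinates.

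Depth differed by tissue. Serum libraries held 157415 to 2777850 counts, NAc libraries 5894542 to 24776772 and PFC libraries 3419438 to 20773798. In bulk samples fewer cells of a type and less RNA per cell cannot be told apart. Markers were set against the labelled tissues. The summed level of 6 neuronal miRNAs was 12200 to 51250 CPM in serum (CPM, counts scaled to a library total of 1e+06), 211800 to 281300 CPM in NAc and 277800 to 375300 CPM in PFC. The summed level of 4 red cell miRNAs was 28250 to 86150 CPM in serum, 80.2 to 180 CPM in NAc and 70.3 to 706 CPM in PFC. None of these names was at 0 in all libraries of a tissue. Some libraries stood apart. The mean correlation with the other PFC libraries was 0.94 for saline replicate 8 and 0.944 for saline replicate 12, against 0.965 to 0.981 for the rest. The corresponding value in serum was 0.858 for saline replicate 12, against 0.911 to 0.956 for the rest. PFC heroin replicate 5 held 80540 CPM of 4 miRNAs that an earlier analysis of these data had found high in NAc, against at most 24300 CPM in the other PFC heroin libraries and 26230 to 121300 CPM in NAc. The 26230 CPM was that of NAc heroin replicate 2, against 74670 to 117100 CPM in the other NAc heroin libraries. Its mean correlation with the other NAc libraries was 0.974, against 0.978 to 0.987 for the rest.

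miR-181a-5p was the leading member in every brain library, followed by miR-181b-5p, miR-181d-5p and, far below, miR-181c-5p. Over the 24 brain libraries the 4 members together took 0.541% ± 0.188 of the counts (SD), with shares among themselves of 70.6% ± 2.71 for miR-181a-5p, 22.4% ± 2.42 for miR-181b-5p, 6.86% ± 1.37 for miR-181d-5p and 0.205% ± 0.121 for miR-181c-5p. In the 12 serum libraries the family took a like share of the counts, 0.455% ± 0.0872, but its make-up differed. There the shares were 59.1% ± 9.88 for miR-181a-5p, 28.5% ± 9.59 for miR-181d-5p, 11.7% ± 2.03 for miR-181b-5p and 0.666% ± 0.284 for miR-181c-5p. Neighbours in these orders did not overlap in CPM within any group, with 1 exception: in serum of saline rats miR-181d-5p reached 2073 CPM in replicate 12, above the 1432 CPM of miR-181a-5p in that library. A level here is a share of reads, and small RNA libraries do not capture every sequence equally well, so the order describes these libraries.

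**Figure D1:**
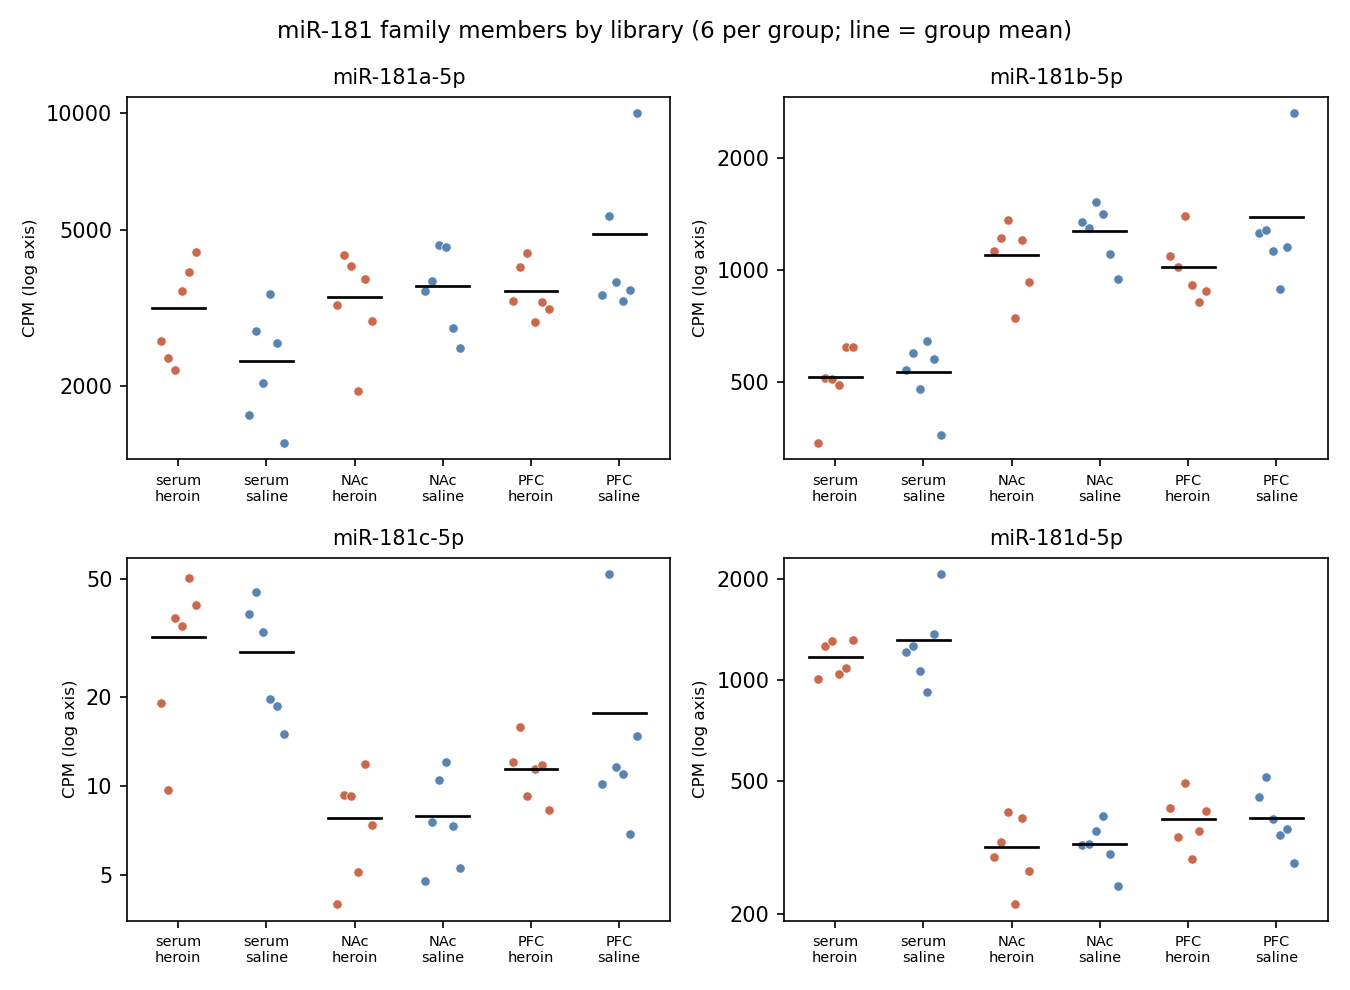
CPM of each miR-181 member (log axis) in every library, with 6 libraries per group shown as points, heroin in red and saline in blue, and the group mean as a line. Serum lies below brain for miR-181b-5p and above it for miR-181d-5p without overlap, and the highest points of miR-181a-5p, at 9989 CPM, and of miR-181c-5p, at 51.8 CPM, are both PFC saline libraries.

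Whether heroin intake altered the family was asked in each tissue separately, by edgeR's quasi-likelihood test, fitted across all names that passed its count filter, with Benjamini-Hochberg adjustment. A name was called at an adjusted p under 0.05. No member was called in any tissue. In serum 0 of 4 members were called, as were 0% of the 229 names tested. In NAc 0 of 4 were called and 0% of 480, and in PFC 0 of 4 and 0% of 455. Nor did any member have an unadjusted p under 0.05 (0 of 4 in each tissue), against 4.8% of names in serum, 6.25% in NAc and 3.52% in PFC (11, 30 and 16 names). DESeq2 and limma also called 0 of 4 members in each tissue. DESeq2 called 4 other names in serum.

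miR-181a-5p, the most abundant member, ran from 2192 to 4400.4 CPM in serum of heroin rats (median 3062), against 1432 to 3444 CPM in saline rats (median 2308). The groups overlapped over most of their range. Its log2 fold change was 0.33 ± 0.26 (SE, adjusted p = 0.860, edgeR, n = 6 each). In NAc it ran from 1948 to 4315 CPM in heroin rats (median 3489.5) and from 2509 to 4599 CPM in saline rats (median 3610.1), and the log2 fold change was 0.05 ± 0.17 (adjusted p = 0.930, edgeR). In PFC the heroin libraries held 2921 to 4376 CPM (median 3289.6) and the saline libraries 3307 to 9989 CPM (median 3609). A single saline library, replicate 12, made the upper end of that range, and the next highest value was 5449 CPM in saline replicate 8. The log2 fold change of −0.35 ± 0.28 (adjusted p = 0.995, edgeR) came to −0.02 without both libraries. It was −0.02 without replicate 12 alone and −0.33 without replicate 8 alone.

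miR-181b-5p, which shares hairpin clusters with miR-181a-5p, averaged 517 ± 102 CPM in serum of heroin rats and 534 ± 101 CPM in saline rats (SD, n = 6 each), with a log2 fold change of −0.16 ± 0.24. In NAc it averaged 1098 ± 224 CPM in heroin rats and 1272 ± 211 CPM in saline rats, with a log2 fold change of −0.06 ± 0.15. In PFC it averaged 1020.4 ± 209 CPM in heroin rats and 1392 ± 628 CPM in saline rats, where replicate 12 again stood at 2642 CPM, above the 892 to 1281 CPM of the other 5. The PFC log2 fold change of −0.33 ± 0.28 came to −0.15 without saline replicates 8 and 12. It was −0.07 without replicate 12 alone and −0.37 without replicate 8 alone. The lowest adjusted p of this member over the 3 tissues was 0.860 (edgeR).

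miR-181d-5p was not called between treatments in any tissue. It averaged 1171 ± 140.1 CPM in serum of heroin rats and 1319 ± 401 CPM in saline rats (log2 fold change −0.30 ± 0.30, adjusted p = 0.860, edgeR, n = 6 each). The highest of the saline libraries was replicate 12, at 2073 CPM, and the log2 fold change was −0.06 without it. In NAc the averages were 317 ± 72.1 CPM in heroin rats and 323 ± 50.8 CPM in saline rats, with a log2 fold change of 0.11 ± 0.16. In PFC they were 384 ± 70.2 CPM in heroin rats and 389 ± 80.8 CPM in saline rats, with a log2 fold change of 0.11 ± 0.23. The sign of the PFC value turned to −0.01 without saline replicates 8 and 12, and that of the NAc value to −0.03 when libraries were scaled by their size alone.

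miR-181c-5p is the scarce member, and counting error was large for it in serum, where a library held 2 to 53 of its reads. Its value in serum heroin replicate 2 rested on 2 reads, 9.70 CPM with an exact 95% binomial interval of 1.17 to 35.0 CPM that covers counting error only. It ran from 9.70 to 50.2 CPM in serum of heroin rats (median 35.8) and from 14.9 to 45.1 CPM in saline rats (median 26.4), with a log2 fold change of −0.04 ± 0.39 (adjusted p = 0.961, edgeR). In NAc it ran from 3.99 to 11.8 CPM in heroin rats (median 8.30) and from 4.77 to 12.1 CPM in saline rats (median 7.44), with a log2 fold change of 0.11 ± 0.27. In PFC it ran from 8.27 to 15.8 CPM in heroin rats (median 11.6) and from 6.86 to 51.8 CPM in saline rats (median 11.3). The 51.8 CPM belonged to saline replicate 8, and the other saline libraries reached at most 14.7 CPM. The PFC log2 fold change was −0.36 ± 0.37 with that library (adjusted p = 0.995, edgeR) and 0.15 without it.

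The intervals show what these data could have missed. In NAc the 95% interval of the log2 fold change, from the SE and the degrees of freedom of the test, was −0.31 to 0.41 for miR-181a-5p and −0.38 to 0.25 for miR-181b-5p. There it was −0.47 to 0.69 for miR-181c-5p and −0.23 to 0.45 for miR-181d-5p. Each member had a wider interval in serum and in PFC, the abundant members included. For miR-181a-5p it was −0.21 to 0.87 in serum and −0.95 to 0.25 in PFC, and for miR-181b-5p −0.67 to 0.35 and −0.92 to 0.26. For miR-181c-5p it was −0.87 to 0.79 in serum and −1.14 to 0.42 in PFC, and for miR-181d-5p −0.94 to 0.35 and −0.39 to 0.61. The heroin effect was also compared between tissues, as an interaction. No member was called in serum against PFC, in serum against NAc or in NAc against PFC (0 of 4 each, against 0% of 462, 489 and 506 names; edgeR). Their smallest adjusted p was 0.699, for miR-181a-5p in serum against NAc. No member had an unadjusted p under 0.05 there, against 5.41%, 7.98% and 3.75% of names (25, 39 and 19). DESeq2 and limma called 0 of 4 members in each of these, and DESeq2 called 2 other names in serum against PFC and 1 in serum against NAc.

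**Figure D2:**
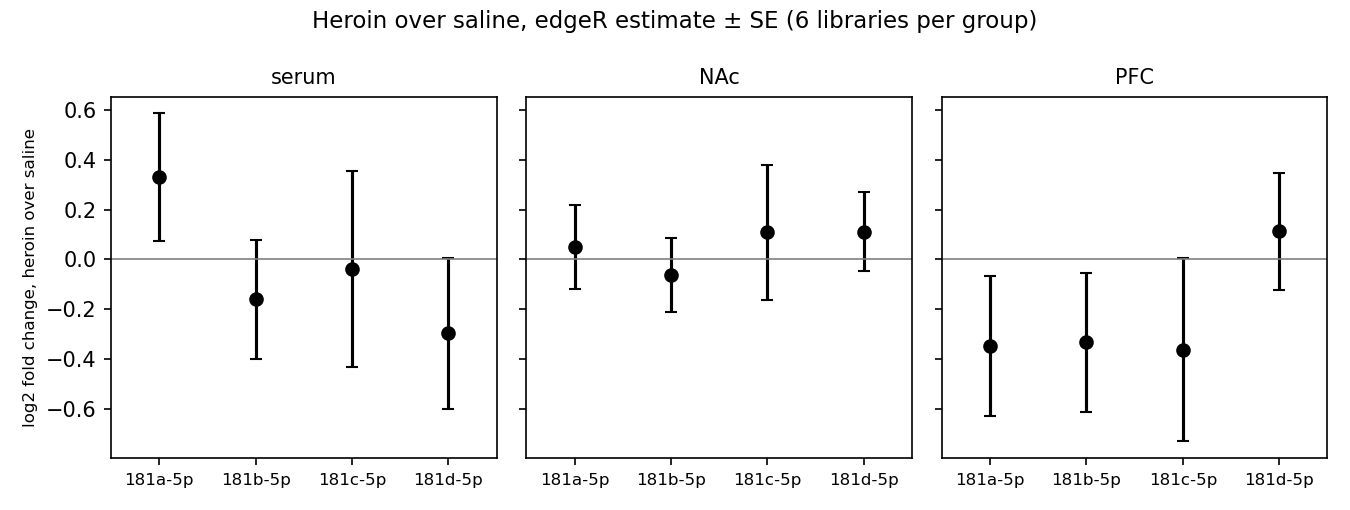
Log2 fold change of heroin over saline for each member in serum, NAc and PFC, as the edgeR estimate with its SE from 6 libraries per group. All 12 estimates lie between −0.36 and 0.33 and none was called.

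Between tissues the members parted. In serum compared with either brain region, miR-181b-5p fell and miR-181d-5p rose in both treatments. The estimates of miR-181a-5p fell less than the median of all names tested, a difference that was not itself tested. It was small for serum over PFC in saline rats, at −1.21 ± 0.38 against a median of −1.45. miR-181b-5p held 344 to 622 CPM in serum of heroin rats (median 512), against 746 to 1364 CPM in NAc (median 1167) and 820.1 to 1397 CPM in PFC (median 967). In saline rats it held 362 to 644 CPM in serum (median 559), against 947 to 1520.1 CPM in NAc (median 1323) and 892 to 2642 CPM in PFC (median 1205). Every serum library lay below every brain library. Its log2 fold change was −2.25 ± 0.25 for serum over NAc and −1.66 ± 0.27 for serum over PFC in heroin rats, and −1.60 ± 0.24 and −1.54 ± 0.37 for the same comparisons in saline rats (adjusted p between 6.62e-08 and 0.000672, edgeR, n = 6 each).

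miR-181d-5p, which differs from miR-181b-5p by the single base given above, went the other way. It held 1009 to 1317 CPM in serum of heroin rats (median 1178), against 215 to 405 CPM in NAc (median 312) and 293 to 494 CPM in PFC (median 381). In saline rats it held 925 to 2073 CPM in serum (median 1238), against 242 to 394 CPM in NAc (median 323) and 285 to 514 CPM in PFC (median 371). Every serum library lay above every brain library. The log2 fold change was 0.76 ± 0.26 for serum over NAc and 0.97 ± 0.29 for serum over PFC in heroin rats, and 1.75 ± 0.30 and 1.62 ± 0.42 in saline rats (adjusted p between 4.60e-05 and 0.0103, edgeR).

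Nearly all miRNAs differed between serum and brain, so these calls say little about the family by themselves. In heroin rats 4 of 4 members were called in serum over NAc, where 92.3% of 439 names were, and 4 of 4 in serum over PFC, where 89.3% of 411 were. In saline rats 4 of 4 were called in serum over NAc (90.6% of 424 names) and 3 of 4 in serum over PFC (85.5% of 407). By direction, in the same order of comparisons, miR-181d-5p was among the 32.3%, 34.8%, 33.7% and 33.7% of names called higher, and miR-181b-5p among the 59.9%, 54.5%, 56.8% and 51.8% called lower. CPM without overlap was common too. In that order, 31%, 30.2%, 25% and 23.3% of names lay wholly above brain, as miR-181d-5p did, and 44.4%, 44%, 47.6% and 44% wholly below, as miR-181b-5p did, which makes 75.4%, 74.2%, 72.6% and 67.3% in either direction. The median log2 fold change over all names tested was −2.18 for serum over NAc and −1.57 for serum over PFC in heroin rats, and −1.91 and −1.45 in saline rats. Set against these medians, the fall of miR-181b-5p was close to that of the typical name.

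miR-181a-5p had log2 fold changes of −1.26 ± 0.24 for serum over NAc and −0.79 ± 0.28 for serum over PFC in heroin rats, and of −0.99 ± 0.26 and −1.21 ± 0.38 in saline rats. All 4 were called (adjusted p between 7.15e-05 and 0.0140, edgeR) and all lay above the median of the names tested, while its CPM overlapped between serum and brain in each. miR-181c-5p rose by 0.84 ± 0.34 for serum over NAc and 0.80 ± 0.32 for serum over PFC in heroin rats (adjusted p = 0.0262 and 0.0234, edgeR), and by 1.54 ± 0.35 for serum over NAc in saline rats (adjusted p = 0.000557). Its value for serum over PFC in saline rats was 0.71 ± 0.48 (adjusted p = 0.170), which became 0.96 and was called without PFC saline replicates 8 and 12 (adjusted p = 0.0332, edgeR), was 1.02 and called without replicate 8 alone (adjusted p = 0.0223), and was 0.15 without replicate 12 alone.

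The size of a fold change between serum and brain depended on how libraries were scaled. In place of TMM factors, the factors of DESeq2 (RLE) moved the median of all names by −0.07 and −0.56 log2 for serum over NAc and over PFC in heroin rats and by −0.63 and −0.80 in saline rats. Scaling by library size alone moved it by 1.22 and 0.59 in heroin rats and by 0.32 and 0.07 in saline rats. Under all 3 scalings miR-181b-5p was called lower and miR-181d-5p was higher in the 4 comparisons. miR-181d-5p was not called in 1 of these fits, serum over PFC in heroin rats with RLE factors (0.49, adjusted p = 0.0798). miR-181a-5p was not called in heroin rats when library size alone was used, at −0.09 for serum over NAc and −0.15 for serum over PFC. The value of miR-181c-5p for serum over PFC in saline rats turned to −0.17 with RLE factors. Single libraries also moved these values. In serum over PFC of heroin rats, miR-181c-5p and miR-181d-5p were not called without PFC heroin replicate 5, at 0.24 and 0.36, or without serum heroin replicate 1, at 0.43 and 0.49. The value of miR-181a-5p was then −1.41 and −1.29 and that of miR-181b-5p −2.28 and −2.06, still called. So all 4 members moved down in both fits, each of which estimated its own scaling factors. How much of this shift came from scaling was not tested. The call of miR-181c-5p was also lost without any 1 of serum heroin replicates 5 and 6 and PFC heroin replicates 3, 4 and 6, at 0.56 to 0.67. In serum over NAc of heroin rats, miR-181c-5p lost its call without any 1 of serum heroin replicates 5 and 6 and NAc heroin replicates 1 and 4 (0.68 to 0.79, adjusted p between 0.0520 and 0.0748, edgeR), and miR-181d-5p lost it without serum heroin replicate 2 (0.58, adjusted p = 0.0519). Without NAc heroin replicate 5 the values there were −0.71 for miR-181a-5p, 1.5 for miR-181c-5p and 1.35 for miR-181d-5p, and without replicate 6 they were −0.75, 1.37 and 1.27, all called. The value of miR-181b-5p moved up too, to −1.71 without replicate 5.

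In serum over PFC of saline rats, miR-181a-5p was −1.98 without serum saline replicate 10 and −1.88 without PFC saline replicate 10. In serum over NAc of saline rats, miR-181d-5p was 1.16 without serum saline replicate 12 and still called. In serum over PFC of saline rats, miR-181d-5p came to 0.79 without serum saline replicate 12 and was not called (adjusted p = 0.0512, edgeR), and to 0.64 without serum saline replicates 10, 11 and 12 (adjusted p = 0.157), which stood apart in earlier results of these data. The other members moved down too without serum saline replicate 12, to −1.69 for miR-181a-5p, −2.07 for miR-181b-5p and 0.17 for miR-181c-5p.

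**Figure D3:**
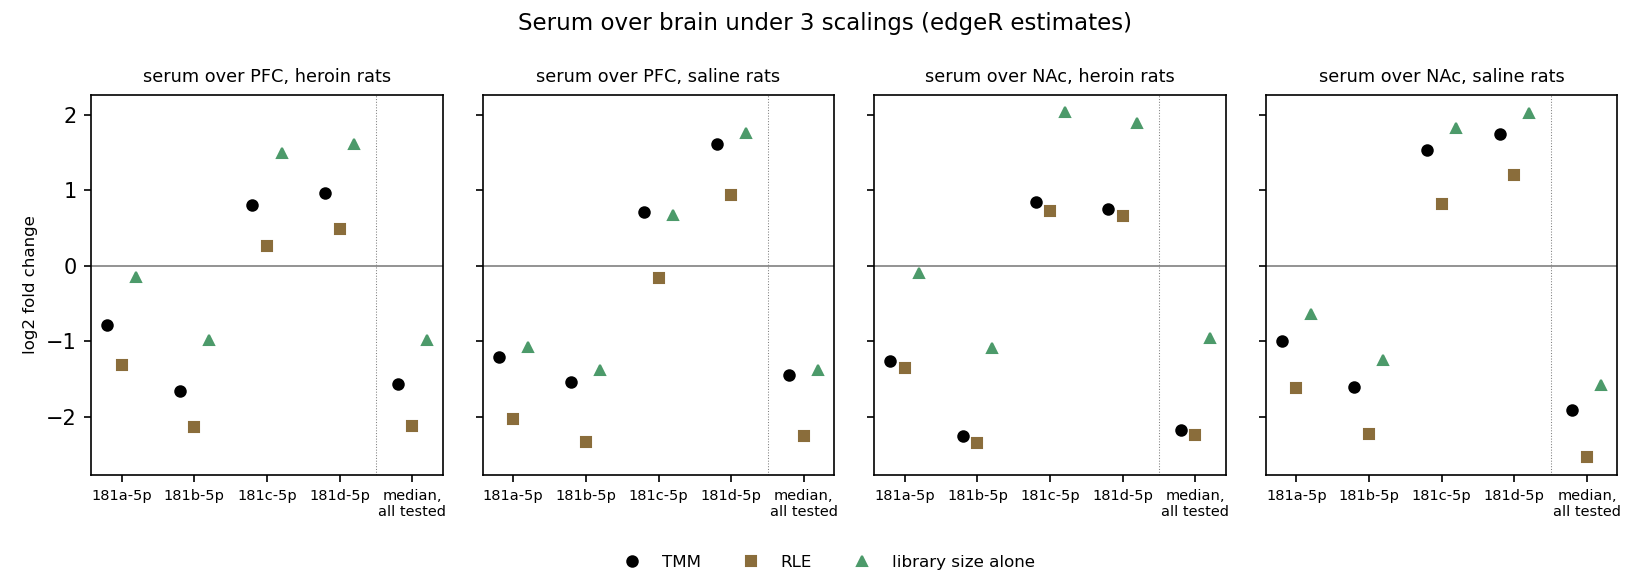
Log2 fold change of serum over PFC and over NAc for the 4 members and for the median of all names tested, under TMM, RLE and library size alone (edgeR, 6 libraries per group). The points of a comparison move together, so that the distance of miR-181d-5p, at 0.97 with TMM for serum over PFC in heroin rats, from miR-181b-5p, at −1.66, is kept.

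Ratios between members within a library do not depend on scaling. Of 27 exact two-sided permutation tests of 3 ratios (0.5 added to each count, 6 libraries per group, smallest possible p 0.00216), 7 passed after adjustment over the 27, and all 7 were between serum and brain. With each library left out in turn, 7 to 8 passed. Ratios of other pairs of names were not tested. Since 67.3% to 75.4% of all names did not overlap in CPM between serum and brain, a ratio that passed does not by itself set the family apart. The ratio of miR-181a-5p to miR-181b-5p averaged, as a geometric mean, 6.01 in serum of heroin rats, against 3.03 in NAc and 3.46 in PFC. The differences were 0.99 ± 0.16 and 0.80 ± 0.16 log2 (SE, adjusted p = 0.0117 for each, exact permutation test), without overlap between groups. In saline rats the ratio averaged 4.23 in serum, against 2.81 in NAc and 3.43 in PFC, with differences of 0.59 ± 0.12 log2 (adjusted p = 0.0195) and 0.30 ± 0.14 log2 (adjusted p = 0.146, exact permutation tests). The comparison with NAc passed and that with PFC did not, except without serum saline replicate 7 (0.39, adjusted p = 0.0438, exact permutation test).

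miR-181c-5p gained on miR-181a-5p in serum. The ratio of miR-181a-5p to miR-181c-5p averaged 102 in serum of heroin rats, against 443 in NAc and 309 in PFC, and 81.1 in serum of saline rats, against 468 in NAc and 324 in PFC. The log2 differences were −2.12 ± 0.32 and −1.60 ± 0.30 in heroin rats and −2.53 ± 0.34 and −2.0 ± 0.49 in saline rats (adjusted p between 0.0117 and 0.0250, exact permutation tests). For the pair from chromosome 19, none of the 9 tests of miR-181c-5p to miR-181d-5p passed. That ratio averaged 0.0257 in serum of heroin rats, against 0.0238 in NAc and 0.0296 in PFC. The difference of serum from PFC was −0.21 ± 0.39 log2 in heroin rats and −0.75 ± 0.51 log2 in saline rats, errors wide enough that an equal ratio was not shown.

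The ratio of miR-181b-5p to miR-181d-5p was looked at after its values had been seen and is given without a test. It was below 1 in 12 of 12 serum libraries, with values of 0.175 to 0.697, and above 1 in 24 of 24 brain libraries, with values of 2.16 to 9.27. Its median was 0.449 in serum, 3.67 in NAc and 2.82 in PFC. The lowest serum value was that of saline replicate 12 and the highest brain value that of PFC saline replicate 12. The other serum libraries of saline rats held 0.421 to 0.697, and the other PFC libraries of saline rats 2.49 to 3.21.

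No heroin test of these ratios passed with all libraries. In serum the ratio of miR-181a-5p to miR-181b-5p was 4.27 to 7.59 in heroin rats (median 6.67) and 3.11 to 5.34 in saline rats (median 4.34). In 4 of the 6 heroin libraries it lay above every saline library. The difference was 0.51 ± 0.18 log2 (p = 0.0238, adjusted p = 0.0779, exact permutation test). Without serum heroin replicate 3 it was 0.61 and passed (adjusted p = 0.0438, exact permutation test). The other 8 heroin tests had adjusted p between 0.369 and 0.963 (exact permutation tests), with differences between −0.29 and 0.33 log2.

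**Figure D4:**
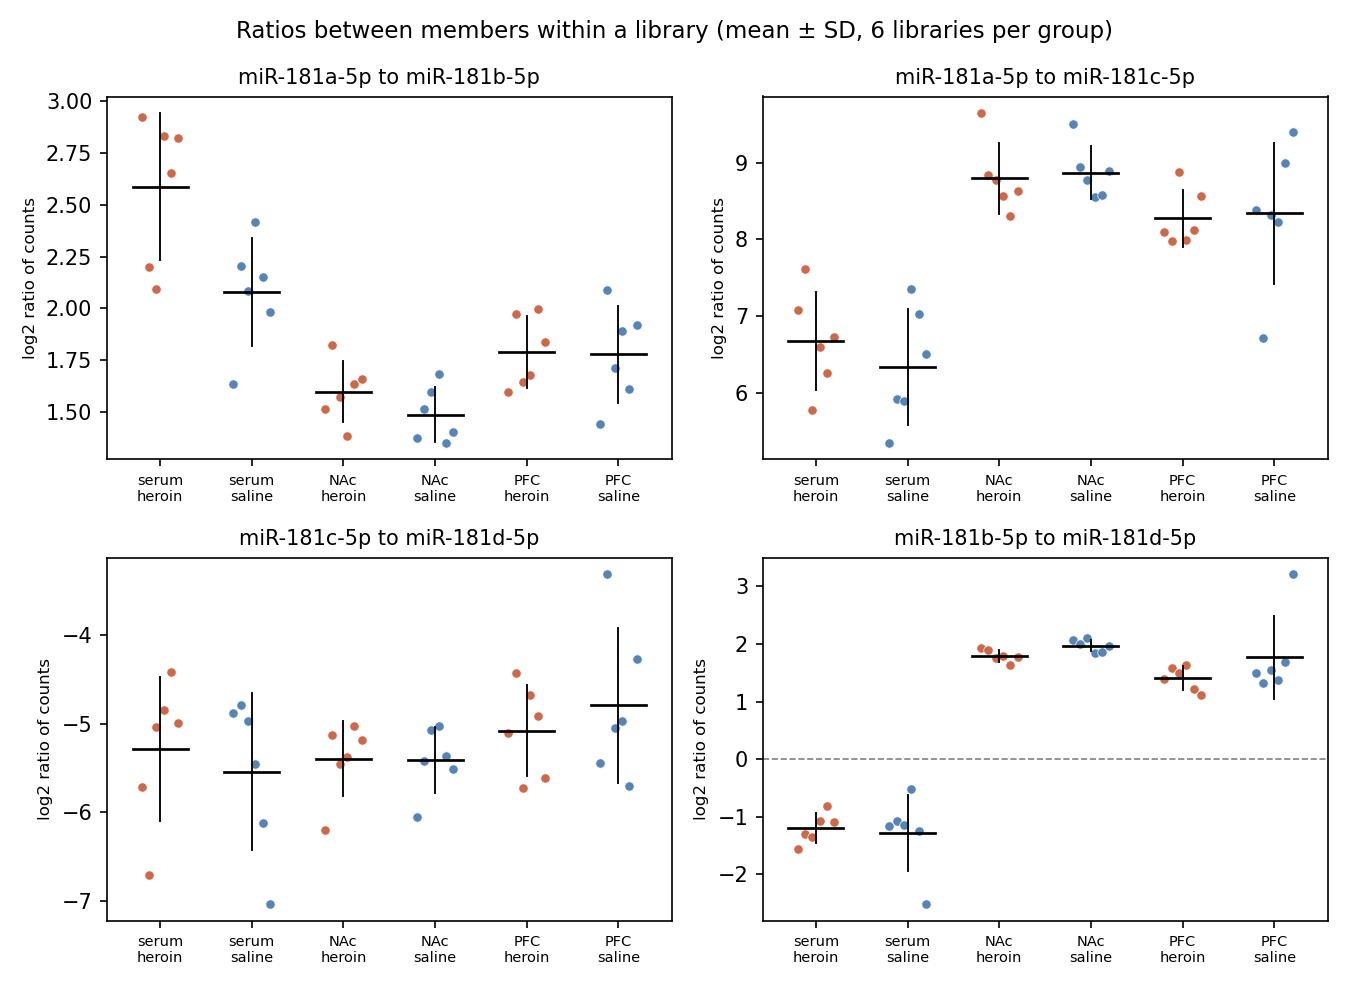
Log2 ratios of counts between members within each library, with points for the 6 libraries of a group and the mean ± SD as lines. The serum libraries lie apart from brain for miR-181a-5p to miR-181c-5p, except beside PFC saline replicate 8, and for miR-181b-5p to miR-181d-5p, where the dashed line marks equal counts and serum values are all below it.

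Between NAc and PFC no member was called in either treatment (0 of 4 in heroin rats, against 1.72% of 464 names, and 0 of 4 in saline rats, against 7.07% of 467; edgeR). miR-181c-5p was the only member with an unadjusted p under 0.05, in both treatments, as had 20.9% of names in heroin rats and 24.2% in saline rats (97 and 113). It held 3.99 to 11.8 CPM in NAc of heroin rats, against 8.27 to 15.8 CPM in PFC, and its log2 fold change was −0.56 ± 0.24 (adjusted p = 0.20, edgeR, n = 6 each). Without PFC heroin replicate 5 that value was −0.49. In saline rats the log2 fold change was −1.09 ± 0.38 (adjusted p = 0.111, edgeR), which came to −0.54 without PFC saline replicates 8 and 12 (adjusted p = 0.219). DESeq2 called it in saline rats (−1.10, adjusted p = 0.0434) and limma did not. The other 3 members had log2 fold changes between −0.53 and 0.11 and adjusted p of at least 0.244. The −0.53 was that of miR-181a-5p in saline rats, which came to −0.21 without PFC saline replicate 12, where miR-181b-5p came to 0.03, against −0.24 with all libraries.

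The genomic neighbours of miR-181c-5p and miR-181d-5p were taken as a list chosen with earlier results known. Of 6 names from the miR-23a, miR-27a and miR-24-2 hairpins, miRNAs known from muscle, vessels and blood cells, 5 passed the count filter. All 5 were called higher in serum in each of the 4 comparisons with brain, where 32.3% to 34.8% of names were, with medians of 3.81 log2 over NAc and 3.64 over PFC in heroin rats and 4.03 and 3.41 in saline rats. Mature miR-24-3p also arises from a hairpin elsewhere, and so does not mark this cluster alone. In NAc over PFC 0 of the 5 were called in heroin rats and 2 in saline rats, miR-24-2-5p at −1.81 ± 0.34 (adjusted p = 0.00250) and miR-27a-5p at −1.19 ± 0.35 (adjusted p = 0.0496, edgeR), against 3.43% of names called lower. None was called between heroin and saline.

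Sequences of the 3p arms of miR-181a-1, miR-181c and miR-181b-1 are shown. As above, bases 2 to 8 are in capitals and the sequences are RefSeq entries on GRCr8.
rno-miR-181a-1-3p: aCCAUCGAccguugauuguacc
rno-miR-181c-3p: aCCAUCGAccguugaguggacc
rno-miR-181b-1-3p: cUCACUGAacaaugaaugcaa
miR-181a-1-3p and miR-181c-3p share the seed CCAUCGA, which differs from that of the 5p arms. The name rno-miR-3570 (gguacaaucaacggucgauggu) is annotated on the opposite strand of the same 22 bases as miR-181a-1-3p. The counts of the 2 names were 74014 and 73768 and differed by 0.166% of their sum, so they cannot be told apart here, and the values of miR-181a-1-3p may belong to either name.

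miR-181c was the hairpin whose 3p arm was the more abundant in brain. The ratio of miR-181c-5p to miR-181c-3p had a median of 2.73 in the 12 serum libraries (0.613 to 13.0), 0.360 in NAc (0.141 to 0.525) and 0.308 in PFC (0.198 to 1.18). The 5p arm held more counts in 11 of 12 serum libraries and in 1 of 24 brain libraries, PFC saline replicate 8. By summed counts the ratio was 2.03 in serum, from 213 and 105 reads, and 0.337 in brain, from 2986 and 8862 reads. Reads were few in serum, with 0 counts of the 3p arm in 2 libraries, so single values there are uncertain.

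The other 3p arms were scarce in serum. The ratio of miR-181a-5p, from both of its hairpins, to miR-181a-1-3p had a median of 159 in serum (75.9 to 324), 17.9 in NAc and 14.2 in PFC, and PFC saline replicate 12 was the highest brain library, at 82.2. miR-181b-1-3p had 0 counts in all 12 serum libraries together, against 1915 counts in NAc and 1829 in PFC. A count of 0 allows up to 3 counts, or 0.395 CPM over the pooled serum libraries, so it was at least 30.2-fold lower in serum than in NAc and 34.5-fold lower than in PFC, an estimate of counting error only. miR-181a-2-3p, the arm specific to the chromosome 3 hairpin, averaged 20.2 ± 4.08 CPM in NAc and 14.8 ± 4.57 CPM in PFC (SD, n = 12 each), with 7 counts in serum in all. The summed ratio of miR-181a-1-3p to miR-181a-2-3p was 9.77 in NAc and 20.7 in PFC. Of the 6 names of 3p arms, 4 passed the count filter in the brain comparisons, and none of these was called between NAc and PFC or between heroin and saline in either region (edgeR). In serum none passed the filter for heroin against saline, so none was tested there. In each comparison of serum with brain the same 4 were called lower in serum (adjusted p of at most 0.0134, edgeR). So were 51.8% to 59.9% of all names tested. miR-181b-2-3p and miR-181d-3p were at or near 0 everywhere, with 37 and 11 counts over the 36 libraries.

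**Figure D5:**
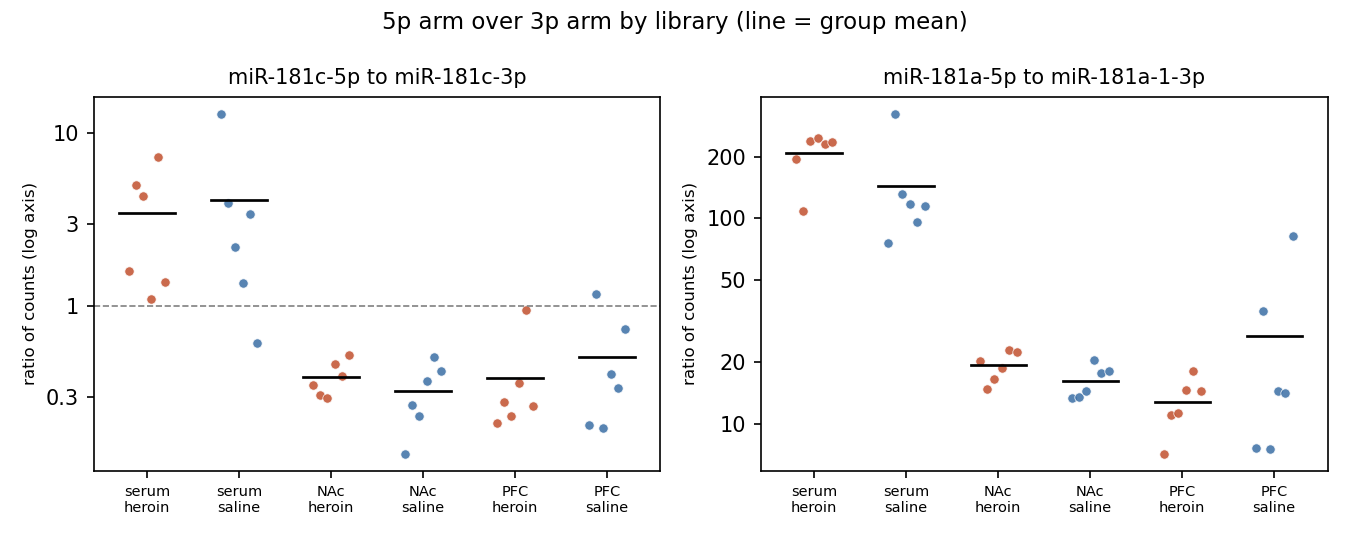
Ratio of the 5p to the 3p arm (log axis) of miR-181c and of miR-181a with its chromosome 13 3p arm in each library, with 0.5 added to each count, 6 libraries per group as points and the group mean as a line. The dashed line marks equal arms, and 11 of 12 serum libraries lie above it for miR-181c, against 1 of 24 brain libraries.

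Members varied together to different degrees from library to library. After group means were subtracted from log2(CPM + 1), the correlation of miR-181a-5p with miR-181b-5p was 0.917 over the 24 brain libraries and 0.864 over the 22 without PFC saline replicates 8 and 12. That of miR-181b-5p with miR-181d-5p was 0.33 and 0.857, that of miR-181a-5p with miR-181c-5p 0.506 and 0.576, and that of miR-181a-5p with miR-181d-5p 0.341 and 0.80. Over the 12 serum libraries the correlation was 0.719 for miR-181a-5p with miR-181b-5p, −0.339 for miR-181b-5p with miR-181d-5p and −0.517 for miR-181a-5p with miR-181d-5p. Serum saline replicate 12 held the lowest miR-181a-5p of these libraries, 1432 CPM, and the highest miR-181d-5p, 2073 CPM. The serum correlations were not repeated without it, so the negative values may rest largely on that library. These are descriptions, since the values share library, depth and read assignment. Outside the family, among 162 names that averaged 100 CPM or more in brain, the most similar to miR-181a-5p was miR-3065-3p (r = 0.799, and 0.663 without those 2 libraries). The most similar to miR-181b-5p was let-7b-5p (0.865 and 0.724), to miR-181c-5p miR-124-3p (0.775 and 0.619) and to miR-181d-5p miR-125b-5p (0.782 and 0.763). The counts of miR-3065-3p differed from those of miR-338-5p by 1.42% of their sum, and those of miR-125b-5p from those of miR-3588 by 1.51%, so neither pair of names can be told apart here.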

How the data were processed

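Small RNA with inserts of 18 to 40 bases was sequenced from 36 libraries, which the labels call biological replicates, so p-values measure the spread between these samples. The deposited table, per the file headers, gives a raw count and a TPM value for each of 861 miRNA names, 706 annotated and 155 predicted. All 30996 deposited TPM values equal count divided by library total times 1e+06 within a relative difference of 4.9e-15, so they carry no length correction and CPM here is the same quantity. The submitters' processing notes name Bowtie and rn6. The 72 value columns were matched to libraries by name. No replicate pair among 90 agreed within counting noise.

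Counts were tested with edgeR 4.0.16 (R 4.3.3), using the quasi-likelihood F test with TMM factors, names kept by filterByExpr (minimum count 10), only the groups compared in the fit, and an adjusted p under 0.05 by Benjamini-Hochberg over all names tested. There were 12 such comparisons, 3 of heroin, 3 interactions and 6 of tissues. SE was taken from the F statistic, as the absolute log2 fold change over its square root. Log2 ratios between members, with 0.5 added to each count, were compared by exact two-sided permutation tests in Python 3.11.15. Alternatives used DESeq2 1.42.0, limma 3.58.1 on log2(TPM + 1), other scalings and filters, and libraries left out. The members, gene lists and alternatives were chosen with earlier results of these data known. Named miRNAs were the members, their 3p arms, and for each member the names most correlated with it over brain libraries. The neighbours in the chromosome 19 cluster were a listed group. Serum depth was low, and exact binomial intervals cover counting error only.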

Additional observations from a re-analysis of the deposited data

Results flagged for a closer look

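In groups of 6 libraries, a value was set apart when its gap to the nearest library, divided by the range of the group, passed Dixon's 95% critical value. Of 42 groups tested 4 were set apart, and chance alone gives about 5% of groups. miR-181a-5p stood at 9989 CPM in PFC saline replicate 12, against 3307 to 5449 CPM in the other 5 libraries. miR-181b-5p stood at 2642 CPM in the same library, against 892 to 1281 CPM. miR-181c-5p stood at 51.8 CPM in PFC saline replicate 8, against 6.86 to 14.7 CPM. The log2 ratio of miR-181c-5p to miR-181d-5p was −6.20 in NAc heroin replicate 1, against −5.46 to −5.03. PFC saline replicate 12 also held 706 CPM of the red cell miRNAs and replicate 8 held 295 CPM, against 70.3 to 144 CPM in the other PFC libraries. Their part in these values was not tested.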

How the results depend on the processing

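No member was called between heroin and saline, or in an interaction, under any alternative run. The count of members called differed by over 1.5 times from that reported in few settings. In serum over PFC of heroin rats it was 2 with RLE factors, 2 in one fit over all 36 libraries and 2 to 4 with each library left out in turn, against 4. In NAc over PFC of saline rats it was 1 with DESeq2 and 1 in the fit over all 36 libraries, against 0. Leaving out 1 library kept the count within 1.5 times in 214 fits and not in 2, those without serum heroin replicate 1 and without PFC heroin replicate 5. The 7 ratio tests that passed stayed 7 with 1 added to each count. They numbered 7 to 8 with each library left out, and the added one was a heroin test, in serum, without serum heroin replicate 3, a test of serum over PFC without serum saline replicate 7, or a test between NAc and PFC without PFC heroin replicate 3 or PFC saline replicate 7.

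Scaling by library size alone changed the balance of all names called in NAc over PFC, which was 3 higher and 5 lower in heroin rats (4 and 4 with library size) and 17 higher and 16 lower in saline rats (17 and 9).

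No log2 fold change that turned sign was called under the setting that turned it. Between heroin and saline in PFC, miR-181d-5p was −0.017 with library size alone, −0.011 with limma and −0.014 without saline replicates 8 and 12, where miR-181c-5p was 0.19. In NAc, with library size alone and with limma, miR-181a-5p was −0.10 and −0.11, miR-181c-5p −0.022 and −0.026 and miR-181d-5p −0.030 and −0.047. miR-181b-5p was 0.026 in the fit over all libraries. In serum miR-181c-5p was 0.19 with library size alone and 0.11 with limma. For NAc against PFC, the interaction of miR-181d-5p was −0.013 with library size alone and −0.035 with limma, and that of miR-181c-5p was −0.12 without PFC saline replicates 8 and 12. For serum against PFC, that of miR-181b-5p was −0.043 in the fit over all libraries and −0.047 without serum saline replicates 10, 11 and 12, and that of miR-181c-5p was −0.22 without those and −0.12 without PFC saline replicates 8 and 12. For serum against NAc, miR-181b-5p and miR-181c-5p were −0.18 and −0.18 with RLE factors, −0.28 and −0.22 with no filter, −0.20 and −0.18 with DESeq2, −0.36 and −0.29 in the fit over all libraries, and −0.11 and −0.11 with repeated names counted once. miR-181c-5p was −0.44 there without serum saline replicates 10, 11 and 12. In serum over PFC of saline rats miR-181c-5p was −0.17 with RLE factors, −0.11 with no filter and −0.17 with DESeq2. The cause was not tested.

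With each library left out in turn, these values crossed 0. Between heroin and saline, miR-181c-5p ran from −0.46 to 0.15 in PFC, −0.022 to 0.25 in NAc and −0.15 to 0.20 in serum, and miR-181a-5p from −0.032 to 0.14 in NAc. Among interactions, NAc against PFC ran from −0.037 to 0.45 for miR-181b-5p and −0.061 to 0.13 for miR-181d-5p, serum against PFC from −0.13 to 0.36 for miR-181b-5p and −0.036 to 0.69 for miR-181c-5p, and serum against NAc from −0.032 to 0.49 for miR-181a-5p, −0.40 to 0.0037 for miR-181b-5p and −0.34 to 0.026 for miR-181c-5p. With all libraries the interaction of serum against NAc was 0.026 for miR-181b-5p and 0.042 for miR-181c-5p, each above its whole range with a library left out. NAc over PFC ran from −0.16 to 0.018 for miR-181a-5p and −0.00050 to 0.16 for miR-181b-5p in heroin rats, and from −0.35 to 0.026 for miR-181b-5p in saline rats. Differences of the log2 ratio of miR-181c-5p to miR-181d-5p ran from −0.041 to 0.54 for heroin in serum, −0.12 to 0.17 in NAc and −0.47 to 0.0098 in PFC, from −0.38 to 0.079 for serum over PFC in heroin rats, and for serum over NAc from −0.064 to 0.40 in heroin rats and −0.29 to 0.16 in saline rats. For heroin, the ratio of miR-181a-5p to miR-181b-5p ran from −0.056 to 0.073 in PFC, and that of miR-181a-5p to miR-181c-5p from −0.39 to 0.14 in PFC and −0.25 to 0.048 in NAc.

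Heroin and saline rats share no replicate number, so a replicate block was fitted for tissues and interactions. Nothing in the labels says that a number marks 1 rat, and same-numbered NAc and PFC libraries had correlations of −0.136 to 0.76 in heroin rats (median 0.514, against −0.119 for other numbers) and −0.173 to 0.479 in saline rats (median 0.206, against −0.00933). Of 6 pairs, 4 had a correlation over 0.1 and 2 were closest to their own number in each treatment. For serum and PFC 1 of 6 pairs was over 0.1 in heroin rats and 5 in saline rats, and for serum and NAc 2 in each. Every pair over 0.1 was asked for, which no tissue pair met. With the replicate block 0 members were called in each interaction and in NAc over PFC, 3 in serum over PFC for each treatment, and 3 in serum over NAc in heroin rats and 4 in saline rats. The call lost in heroin rats was that of miR-181c-5p, at 0.74 for serum over PFC (adjusted p = 0.167) and 0.89 for serum over NAc (adjusted p = 0.0506, edgeR). All names called in NAc over PFC numbered 53 with the block and 8 without in heroin rats, and 30 and 33 in saline rats. With libraries paired by number, none of the 7 ratio tests passed. With 6 pairs a test can pass after adjustment only if most tests reach the smallest possible p. This outcome therefore does not show that the differences were lost under pairing.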

Other observations

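Of 13 miRNAs linked in the literature to psychostimulants or dopamine signalling, 0 were called between heroin and saline in any tissue by edgeR. The share over all names was 0% too, of 229 in serum, 480 in NAc and 455 in PFC, so the count does not set the list apart. Their median log2 fold change was −0.03 over 6 tested in serum, −0.24 over 12 in NAc and −0.03 over 12 in PFC, beside −0.08, −0.07 and −0.05 over all names tested.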
